A study of Mus musculus with 12 samples.

Results

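The nuclear genes of oxidative phosphorylation were followed through 4 groups of sorted mouse fetal liver (FL) cells. All genes named Nduf followed by a, b, c, s, or v and a digit, Sdha to Sdhd, Uqcr, Cox4 to Cox8, or Atp5 were taken, pseudogenes named with -ps left out. Of the 38127 genes in the counts, 84 were members: 37 of complex I, 4 of complex II, 8 of complex III, 18 of complex IV, and 17 of complex V. The complex was assigned by name. Atp5sl is named Dmac2 in GENCODE vM21 and Atp5s is named Dmac2l in RefSeq. Their place in complex V therefore rests only on their names in the counts.

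Oxidative phosphorylation is the route by which mitochondria make most of the ATP of an aerobic cell. Complexes I and II pass electrons from NADH and succinate to ubiquinone, complex III passes them on to cytochrome c, and complex IV hands them to oxygen. Complexes I, III, and IV pump protons across the inner membrane, and complex V, the ATP synthase, lets them flow back as it makes ATP. Most subunits are encoded in the nucleus and a few in mitochondrial DNA, so both genomes must be expressed to build complexes I, III, IV, and V. In the liver, hepatocytes are rich in mitochondria, whereas erythroid cells remove theirs at the end of maturation.

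Cells negative for Ter119 and CD45 were sorted from livers of C57BL/6 embryos, and 3 libraries were sequenced per group. The study describes its replicates as independent litters, without separate mention of the E18.5 libraries. P2 cells (CD54-CD31-Kit+CD24+), CD324+ cells (labelled CD54+CD31-), and CD31+ cells (CD54+CD31+) came from E14.5, and a second set of CD54+CD31- cells from E18.5. The study described P2 cells as erythroid progenitors, CD31+ cells as endothelial, and CD324+ cells as epithelial cells that include hepatoblasts. Each gate is a mixture defined by surface antigens, and in bulk RNA fewer cells of a type and less RNA per cell cannot be told apart.

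Total counts ranged from 40714017 to 64368883 per library. Of these, 3 genes (Cdk8, Zc3h7a, and Il1rapl1) held 19.2% to 23.1% in CD324+ and 16.0% to 20.4% in P2 libraries. They held 14.2% to 16.0% in CD31+ and 10.8% to 14.1% in E18.5 libraries, so the counts left for other genes differed by group. Levels are given as CPM, counts scaled to a common library size after adjustment by edgeR's TMM method over the 12 libraries. The summed CPM of 12 hepatoblast markers was 73333 to 84495 in CD324+ cells, 6008 to 47346 in E18.5 cells, and at most 985 in P2 and CD31+ cells. Trf, on this list, did not follow the sum, at 0.028, 0.063, and 0.099 CPM in CD324+ libraries. The 12 erythroid progenitor markers summed to between 2574 and 2763 in P2 cells against at most 950 elsewhere. Of these, Alas2 was listed at 0 in all libraries, and Slc4a1 and Hbb-bs did not follow the sum. Slc4a1 was at 136, 143, and 82.3 CPM in P2 and 170, 291, and 211 in CD324+ libraries. Hbb-bs was at 48.1, 43.9, and 32.8 CPM in P2, 47.7, 122, and 74.8 in CD324+, and 26.7, 64.1, and 169 in CD31+ libraries. The 10 endothelial markers summed to 9971 or more in CD31+ cells, and P2 replicate 2 held 449 against 86.7 and 135 in the other P2 libraries. The E18.5 libraries departed from their liver label: 10 lung epithelium markers summed to between 9765 and 21673 there and to at most 250 elsewhere, and 8 stellate and mesenchymal markers to at least 3952 against at most 237. In E18.5 replicate 1, Alb, the main plasma protein of hepatocytes, was at 2405 CPM against 26609 and 34537 in the other E18.5 libraries, and Sftpc, a lung surfactant gene, at 12377 against 5095 and 5404.

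Of the 84 members, 78 passed the low count filter and were tested: 36 of complex I, all 4 of complex II and 8 of complex III, 13 of complex IV, and all 17 of complex V. Ndufa13 of complex I and Cox4i1, Cox6a2, and Cox8c of complex IV were listed at 0 in all 12 libraries, Cox7b2 had 0 to 6 counts per library and Cox8b 0 to 8. Cox4i1 encodes the general form of subunit 4, and the mitochondrial genes mt-Co2, mt-Co3, mt-Atp6, and mt-Atp8 were listed at 0 as well. A 0 in these files therefore does not show that a gene was silent.

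By their medians, the members were compact and at high levels, but not every member was. The median annotated exon length of the 78 tested members was 1696.5 bases (419 to 8086), against 4174 over all 15461 genes tested in E14.5 cells. Their median level over the 12 libraries was 47.7 CPM against 17.2, and per kb of exon 34.9 CPM against 4.06. The genes lay on 19 chromosomes, 3 of them on X (Ndufa1, Ndufb11, and Cox7b). Reads can be ambiguous for many of them: 26 members shared over 10% of the 50-base stretches of their transcript with other genes, among them Atp5l (84.9%), Ndufs3 (39.7%), Cox5a (32.1%), Ndufa12 (26.2%), Cox5b (25.9%), Uqcrc2 (24.8%), Cox7a2l (17.7%), Ndufb11 (17.5%), Atp5g2 (14.8%), Cox6a1 (12.3%), Atp5g1 (11.6%), and Uqcr11 (10.9%). In addition, 18 members were overlapped over more than 5% of their exons by a gene on the opposite strand. Levels of these 32 members in all are uncertain where the counting could have split or merged reads.

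Promoters of subunit genes are known for binding sites of nuclear respiratory factor 1 (NRF1), a general activator of mitochondrial genes, and of ETS factors such as GABP, also called NRF2. RefSeq promoter windows (GRCm38.p6, 250 bases before to 50 after the start) were found for 69 of the 84 members, 75 windows in all. The letters CGCANGCG, the core of the NRF1 motif, were present on either strand in 30 windows of members (40%), in 8.21% of all 32851 windows, and in 14.9% of the 14287 windows of tested genes. The ETS letters CCGGAAG were found in 21.3% of member windows against 8.86% of all windows and 15.2% of those of tested genes, and the YY1 letters AAGATGGC in 16.0% against 2.75% and 3.92%. The hypoxia response element core ACGTG was in 28.0% against 19.6% and 24.0%. The NRF1 letters were in 12 of 34 windows of complex I, 2 of 3 of complex II, 3 of 5 of complex III, 1 of 13 of complex IV, and 12 of 20 of complex V. These are matches of letters, not sites of binding.

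The stretches just before the gene start are printed for Sdha and Sdhd, the catalytic flavoprotein and a membrane anchor of complex II, for Atp5e, the small epsilon subunit of the ATP synthase, and for the alternative complex IV subunits Cox6b1 and Cox6b2, whose levels came apart in P2 cells. They lie at chr13:74350281-74350390 (Sdha), chr9:50603850-50603999 (Sdhd), chr2:174464106-174464251 (Atp5e), chr7:30626152-30626264 (Cox6b1), and chr7:4753095-4753244 (Cox6b2) of GRCm38.p6, all on the minus strand, and run 5′ to 3′ with matches of the NRF1, ETS, and hypoxia response letters in capitals.
Sdha: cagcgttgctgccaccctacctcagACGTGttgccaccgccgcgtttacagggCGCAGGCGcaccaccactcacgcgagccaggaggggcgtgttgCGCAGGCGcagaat
Sdhd: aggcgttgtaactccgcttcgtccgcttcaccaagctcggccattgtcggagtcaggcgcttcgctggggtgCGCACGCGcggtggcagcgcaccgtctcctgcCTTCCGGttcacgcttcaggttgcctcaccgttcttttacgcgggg
Atp5e: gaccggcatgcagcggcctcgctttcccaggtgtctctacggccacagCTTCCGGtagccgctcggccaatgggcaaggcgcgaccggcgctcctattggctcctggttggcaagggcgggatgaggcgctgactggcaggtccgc
Cox6b1: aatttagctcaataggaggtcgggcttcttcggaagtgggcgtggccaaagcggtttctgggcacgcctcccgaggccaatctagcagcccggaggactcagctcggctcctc
Cox6b2: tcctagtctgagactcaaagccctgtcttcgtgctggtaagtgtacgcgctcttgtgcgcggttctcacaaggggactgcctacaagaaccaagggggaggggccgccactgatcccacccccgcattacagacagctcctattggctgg
The Sdha stretch held the NRF1 letters at 97 and at 54 bases before the RefSeq start and the hypoxia response letters at 125. The Sdhd stretch held the NRF1 letters at 78 and the ETS letters at 46 bases before the start, and the Atp5e stretch the ETS letters at 102. In the Cox6b1 and Cox6b2 stretches as printed none of these letters was found, and the Cox6b1 window held the ETS letters between the printed stretch and the start, at 28 bases before it. No match says only that the letters are not in the window. Sdha, Sdhd, and Atp5e were picked from the core subunits because they held NRF1 or ETS letters, so they are not typical of the members. The window of the core subunit Atp5b held none of the NRF1, ETS, YY1, or hypoxia response letters.

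The question put to these data was how the nuclear subunit genes differ between the erythroid, hepatoblast-rich, and endothelial gates, and between E14.5 and E18.5. The summed level of the 84 members was 9302, 9039, and 8880 CPM in the P2 libraries, 9668, 11710, and 11262 in CD324+ cells, 5283, 6109, and 4898 in the CD31+ gate, and 3160, 3580, and 3933 in E18.5 CD54+CD31- cells. At this scaling no library of a group overlapped another group, and the means were 9074 ± 213 (SD, n = 3), 10880 ± 1073, 5430 ± 618, and 3558 ± 387. The place of P2 against CD324+ cells depended on the scaling: from total counts without TMM the sums were 9029 ± 123.03 in P2 and 8482 ± 1071 in CD324+ cells, with overlapping libraries, and with the authors' factors 7161 ± 298 and 10416 ± 639 without overlap. In each of the 5 complexes and under all 3 scalings the E18.5 cells had the lowest mean summed level and the CD31+ cells the next. With the authors' factors, E18.5 and CD31+ libraries overlapped in complexes II and V. In complex II they were at 310, 364, and 418 against 381, 411, and 378. With total counts, CD31+ and CD324+ libraries overlapped in complex IV, at 566, 633, and 569 against 541, 702, and 731. In complex IV, with TMM, P2 cells had the higher mean, with 884 ± 7.37 CPM in P2 cells and 843 ± 106 in CD324+ cells, whose libraries overlapped. The catalytic ATP synthase subunits Atp5b and Atp5a1 made up a large share of the sum, 18.6% and 12.4% in P2 cells. Without them, the sums with TMM kept their order, at 6257 ± 118, 7448 ± 775, 3874 ± 405, and 2523 ± 211 CPM.

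**Figure D1:**
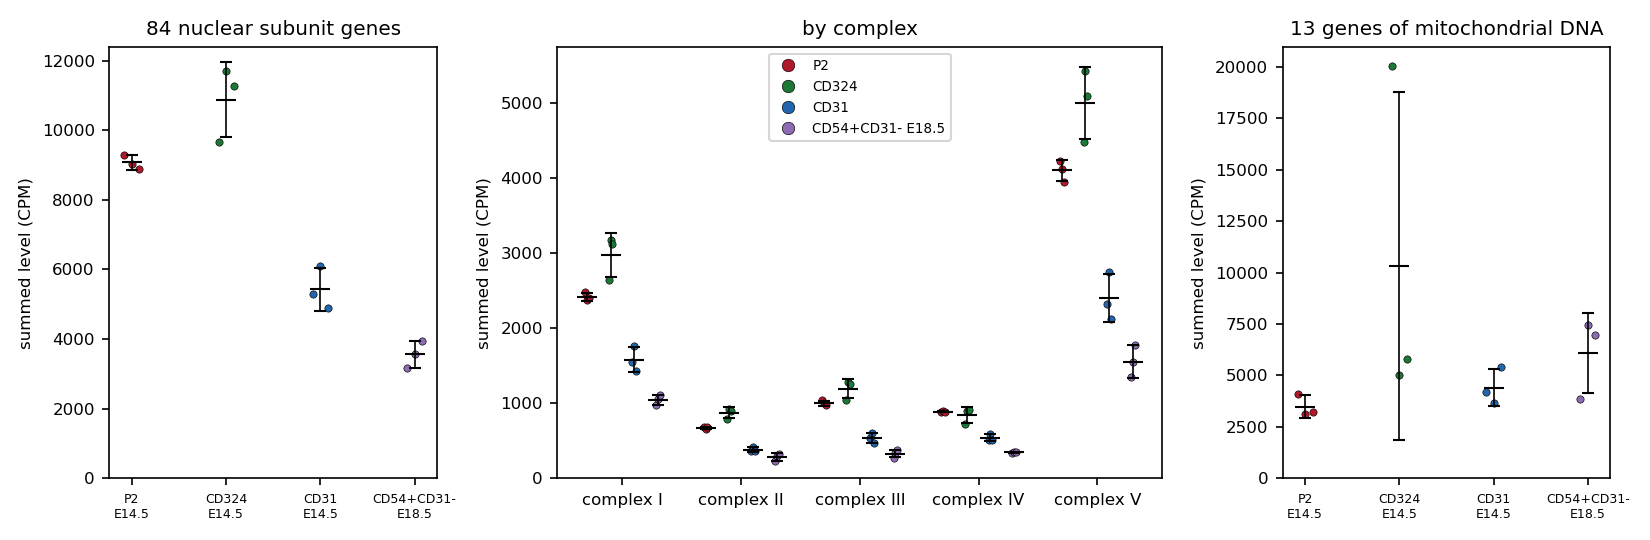
Summed level in CPM (vertical axes) of the 84 nuclear subunit genes, of the same genes by complex, and of the 13 protein genes of mitochondrial DNA, with a point per library and bars for mean and SD of the 3 libraries of each group. The sums of all 84 genes, here scaled with TMM, do not overlap between groups, although P2 and CD324+ libraries overlap when scaled by total counts, and CD324+ replicate 1 stands far above all other libraries in the mitochondrial sum, at 20052 CPM.

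Among the 78 tested members, 51 had their highest mean level in CD324+ cells and 23 in P2 cells, and 70 had their lowest in E18.5 cells. The order CD324+, P2, CD31+, E18.5 held for 45 members and the order P2, CD324+, CD31+, E18.5 for 18. The place of P2 and CD324+ cells in this tally turned with the scaling: 20 members were highest in CD324+ and 52 in P2 cells with total counts, and 65 and 7 with the authors' factors. E18.5 cells were lowest for 61 and 57 members. With edgeR's quasi-likelihood F test, 70 of the 78 differed among the 3 E14.5 populations (adjusted p below 0.05), a share to be read against 86.9% of all 15461 genes. Replicate spread was small, with a median coefficient of variation of 7.74% in P2, 13.2% in CD324+, 14.7% in CD31+, and 12.6% in E18.5 libraries.

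**Figure D2:**
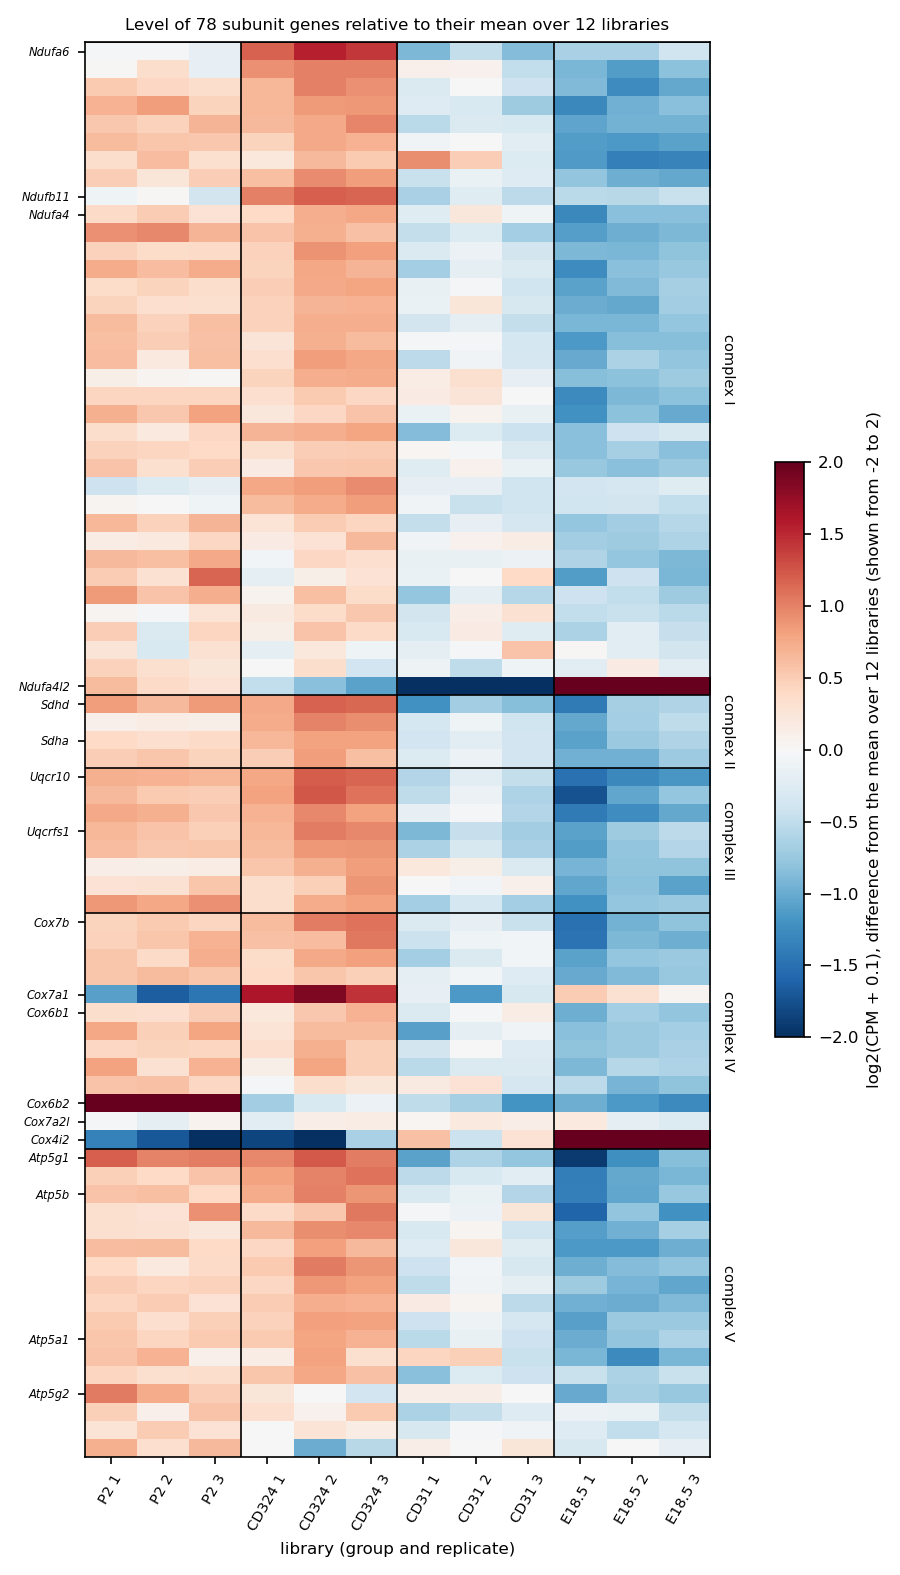
Level of the 78 tested members (rows, by complex, with some of the genes named in the text labelled) in the 12 libraries (columns), as log2(CPM + 0.1) minus the mean of that gene over the libraries, shown from -2 to 2. Most rows are red in P2 and CD324+ libraries and blue in E18.5 libraries, and Ndufa4l2, Cox6b2, Cox7a1, and Cox4i2 depart from this.

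P2 cells were first compared with CD324+ cells. Of the 78 members, 6 were called higher in P2 cells and 23 lower (edgeR, adjusted p below 0.05), while 33.8% of all tested genes were called higher and 36.1% lower. The median member log2 fold change was -0.17 with TMM and -0.43 with the authors' factors but 0.20 with total counts alone, and relative to the median of all genes it was -0.16 under all 3. The split of calls moved likewise, to 3 higher and 50 lower with the authors' factors, beside 4008 and 6495 of all 15461 genes. With total counts it was 23 higher and 7 lower, beside 6765 and 4523 of all genes. The members therefore lay slightly below the typical gene in P2 cells, and the sign of their shared change depended on the scaling. By complex, 3 members rose and 11 fell in complex I, 2 fell in complex II, 4 fell in complex III, 1 rose and 2 fell in complex IV, and 2 rose and 4 fell in complex V. The libraries of the groups did not overlap for 7 members that were higher and 26 that were lower in P2 cells. Here and in the comparisons below, the same count was not made over all genes. These counts are therefore not read as particular to the members.

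In complex I, the accessory subunit Ndufa6 measured 96.5, 95.6, and 87.1 CPM in P2 libraries and 221, 287, and 260 in CD324+ libraries. It fell 2.79-fold in P2 cells (log2 fold change -1.48, SE 0.13, adjusted p = 2.84e-06). Every P2 library lay below every CD324+ library, and Ndufa6 was at 58.7 ± 9.76 CPM in CD31+ cells. Ndufb11, an X-linked accessory subunit, was at 32.5, 34.9, and 26.8 CPM against 69.5, 79.1, and 77.6, again without overlap (log2 fold change -1.28, SE 0.13, adjusted p = 7.93e-06). Ndufv3, a small accessory subunit of the NADH-oxidizing arm, fell 2.23-fold (adjusted p = 1.82e-06). Of the core subunits, which carry the flavin and iron-sulfur centres and the quinone site, Ndufs8 and Ndufs3 fell by log2 values of 0.41 (adjusted p = 0.0111) and 0.43 (adjusted p = 0.0164). Ndufs1, Ndufs7, Ndufv1, and Ndufv2 were not called, with log2 fold changes of 0.04, 0.21, -0.09, and -0.21. The Ndufs3 call was lost without CD324+ replicate 3 (adjusted p = 0.054) or P2 replicate 2 (0.058). With total counts the Ndufs8 and Ndufs3 calls were lost (log2 fold change -0.037 and -0.059), while Ndufa6, Ndufb11, and Ndufv3 were called under all 3 scalings. Ndufb3 (log2 fold change 0.41) and Ndufa12 (0.61) were called higher in P2 cells, and both calls were lost when P2 replicate 3 was left out (adjusted p = 0.068 and 0.17) and when CD324+ replicate 1 was (0.053 and 0.12), that of Ndufb3 also without P2 replicate 1 (0.051) and that of Ndufa12 without CD324+ replicate 2 (0.077). Neither was called with the authors' factors (adjusted p = 0.318 and 0.195).

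In complexes II and III the members called with TMM all fell, but most of these calls were lost with total counts. Sdha, the subunit that oxidizes succinate, was at 377, 360, and 372 CPM in P2 and 453, 499, and 501 in CD324+ libraries (log2 fold change -0.41, SE 0.08, adjusted p = 0.00106). Sdhc, a membrane anchor, fell 1.73-fold (adjusted p = 4.73e-05), and the iron-sulfur subunit Sdhb and the anchor Sdhd were not called, at -0.17 and -0.28. The libraries of Sdha and Sdhc did not overlap between the groups. Of the complex III subunits, Uqcrq fell 1.43-fold (adjusted p = 0.00767), the small subunit Uqcr10 1.31-fold (adjusted p = 0.0189), and the Rieske iron-sulfur protein Uqcrfs1 1.27-fold (adjusted p = 0.0348). The Uqcr10 and Uqcrfs1 calls were lost when P2 replicate 3 (adjusted p = 0.059 and 0.12), CD324+ replicate 2 (0.070 and 0.11), or CD324+ replicate 3 (0.072 and 0.10) was left out, and that of Uqcrfs1 also without P2 replicate 2 (0.068). With total counts Sdha (log2 fold change -0.037, adjusted p = 0.732), Uqcrq (-0.15, adjusted p = 0.379), and Uqcr10 (-0.025, adjusted p = 0.879) were not called and Uqcrfs1 turned to 0.029, while Sdhc was called under all 3 scalings. The core proteins Uqcrc1 and Uqcrc2 were not called, at -0.18 and -0.24.

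Cox6b2 was the member that rose most in P2 over CD324+ cells, under all 3 scalings. Cox6b1 and Cox6b2 encode alternative forms of the subunit that faces the intermembrane space in complex IV, Cox6b2 being best known from testis. Cox6b2, on chr7:4751792-4753094 of GRCm38, was at 71.0, 88.3, and 70.2 CPM in P2 libraries, 9.56, 12.6, and 14.2 in CD324+, 10.9, 9.71, and 6.70 in CD31+, and 7.80, 6.96, and 6.31 in E18.5 libraries. All 3 P2 libraries lay far above the 9 others, which ranged from 6.31 to 14.2 CPM. Cox6b2 rose 6.23-fold over CD324+ cells (log2 fold change 2.64, SE 0.20, adjusted p = 8.79e-07) and 8.35-fold over CD31+ cells (log2 fold change 3.06, SE 0.20, adjusted p = 3.92e-07). The study lists Cox6b2 among the genes it selected as higher in P2 than in CD324+ cells in these libraries, so this value is not independent evidence. Cox6b1 was not called between P2 and CD324+ cells, at 73.2 ± 4.85 and 78.7 ± 13.1 CPM. Per kb of all annotated exons, Cox6b2 held 39.98 ± 4.24% of the Cox6b1 and Cox6b2 level in P2 cells, 8.92 ± 0.24% in CD324+, 9.95 ± 3.38% in CD31+, and 12.5 ± 2.18% in E18.5 cells. The size of these shares depends on the annotation. Annotated exons cover 1108 bases for Cox6b2 and 708 for Cox6b1, and the longest coding transcripts 585 and 618. Neither gene shared a 50-base stretch with another gene.

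The other extreme was Cox7a1, the heart and muscle form of subunit 7a. Its levels were low throughout, at 0.32, 0.19, and 0.23 CPM in P2 and 2.66, 3.18, and 2.34 in CD324+ libraries, and the libraries did not overlap. From 35 counts in P2 and 290 in CD324+ libraries the ratio was 11.05-fold lower in P2 cells (95% counting interval 7.76 to 16.2, covering counting error only), and edgeR gave a log2 fold change of -3.48 (SE 0.41, adjusted p = 2.35e-05). Cox7b, an X-linked subunit, fell 1.39-fold (adjusted p = 0.0043), a call lost with total counts (log2 fold change -0.11, adjusted p = 0.468). Cox5a, Cox5b, Cox6a1, Cox7a2, and Cox8a were not called, with log2 fold changes between -0.21 and 0.15.

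In complex V, Atp5b, the catalytic beta subunit, was at 1739, 1776, and 1554 CPM in P2 and 1970, 2361, and 2160 in CD324+ libraries, a fall (log2 fold change -0.38, SE 0.12, adjusted p = 0.0195) that was not called without P2 replicate 3 (adjusted p = 0.081) or CD324+ replicate 2 (0.071). With total counts the Atp5b difference was -0.0043 (adjusted p = 0.977). Atp5a1, the alpha subunit, was at 1127 ± 53.4 and 1268 ± 117 CPM and was not called, nor were the gamma, delta, and epsilon subunits Atp5c1, Atp5d, and Atp5e, at -0.27, -0.29, and -0.27. The membrane ring of subunit c is made from Atp5g1, Atp5g2, and Atp5g3, which encode the same mature protein. Atp5g2 rose 1.71-fold in P2 cells (adjusted p = 0.00568), Atp5g3 fell 1.41-fold (adjusted p = 0.0018), and Atp5g1 was at 28.6 ± 2.24 and 28.6 ± 2.76 CPM. The Atp5g2 call was lost with the authors' factors (adjusted p = 0.0520) and that of Atp5g3 with total counts (adjusted p = 0.375). Atp5g3 held 79.4 ± 2.59% of the summed level per kb in P2 cells and 87.1 ± 1.88% in CD324+ cells, so the ring genes shifted toward Atp5g2, which held 10.02 ± 1.92% against 4.61 ± 1.36%. These shares also depend on the annotated exon length, 2181 bases for Atp5g3 and 1675 for Atp5g2 against longest coding transcripts of 723 and 753. Atp5l, the g subunit, was called 2.06-fold higher (adjusted p = 0.00752) but shares most of its transcript with other genes, pseudogenes among them.

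More members were called when P2 cells were compared with CD31+ cells. Of the 78 members, 62 rose in P2 cells relative to CD31+ cells and 2 fell, against 34.3% and 39.4% of all genes, with a median log2 fold change of 0.66 beside -0.13 for all genes. Relative to all genes, the member median was 0.79 and lay between 0.55 and 0.89 over the 18 settings, although 19 of the 62 calls were lost with the authors' factors and 11 with total counts. All 4 members of complex II rose with TMM (Sdhc was not called under the other scalings), as did 27 of 36 in complex I, 7 of 8 in complex III, 10 of 13 in complex IV, and 14 of 17 in complex V. The medians by complex ran from 0.62 in complex I to 1.02 in complex III. P2 and CD31+ libraries did not overlap for 62 members higher in P2 cells and 1 lower, a count not made over all genes.

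Sdhd and Atp5g1 led this group after Ndufa4l2 and Cox6b2. Sdhd was at 142, 124, and 143 CPM in P2 and 34.3, 48.8, and 44.2 in CD31+ libraries, a 3.19-fold difference (log2 fold change 1.68, SE 0.15, adjusted p = 3e-06). Atp5g1 was at 31.2, 27.1, and 27.6 against 6.38, 8.78, and 7.84 CPM (3.70-fold, adjusted p = 6.33e-07). Neither overlapped between the groups. Uqcr11, a small complex III subunit, rose 2.65-fold (adjusted p = 4.56e-06), and Ndufs7, which carries the last iron-sulfur cluster of complex I, 2.49-fold (adjusted p = 3.26e-06). The core subunits Ndufs1, Ndufv1, Ndufv2, Ndufs3, and Ndufs8 rose between 1.60-fold and 2.10-fold. Atp5b and Atp5a1 rose 1.79-fold and 1.80-fold. Cox4i2, the alternative form of subunit 4, and Cox7a1 were the members called lower in P2 cells, from 13 against 117 counts for Cox4i2 (ratio 7.38-fold lower, counting interval 4.15 to 14.3). The Cox7a1 call was lost without P2 replicate 2 (adjusted p = 0.087), P2 replicate 3 (0.072), CD31+ replicate 1 (0.081), or CD31+ replicate 3 (0.085).

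CD31+ and CD324+ cells were compared in the same fit and share their libraries with the other contrasts. Here 63 of the 78 members fell in CD31+ cells and 1 rose, against 34% and 31.7% of all genes, and the median log2 fold change was -0.92 beside -0.031 for all genes. All 4 members of complex II and all 8 of complex III fell, with medians of -1.13 and -1.27, and 29 of 36 in complex I, 9 of 13 in complex IV, and 13 of 17 in complex V. Relative to all genes the member median was -0.88 and lay between -1.01 and -0.70 over the 18 settings, although 23 of the 63 calls were lost with total counts and 2 with the authors' factors. Libraries did not overlap for 65 members that were lower and 1 that was higher in CD31+ cells, a count not made over all genes.

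Large falls were measured for Ndufa6 (4.38-fold, adjusted p = 2.54e-07), Sdhd (3.88-fold, adjusted p = 1.22e-06), Atp5g1 (3.74-fold, adjusted p = 6.49e-07), and Ndufb11 (3.02-fold, adjusted p = 1.99e-06), of which Atp5g1 and Ndufb11 share sequence with other genes. The complex I core subunits Ndufs1, Ndufs3, Ndufs7, Ndufs8, Ndufv1, and Ndufv2 fell, by 1.97-fold (Ndufv2) to 2.38-fold (Ndufs3), and the complex III proteins Uqcrc1, Uqcrc2, and Uqcrfs1 by 2.12-fold to 2.97-fold. Ndufa4l2 and Cox7a1 fell further but from under 4 CPM in each library, 6.32-fold (counting interval 3.72 to 11.3) and 5.04-fold. Cox4i2 was the member called higher, from 50, 22, and 45 counts in CD31+ and 3, 1, and 13 in CD324+ libraries. The ratio was 4.24 (counting interval 2.53 to 7.52), and edgeR gave a log2 fold change of 2.12 (SE 0.77, adjusted p = 0.033). That call was lost without CD31+ replicate 1 (adjusted p = 0.088), CD31+ replicate 3 (0.082), CD324+ replicate 1 (0.11), or CD324+ replicate 2 (0.12).

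**Figure D3:**
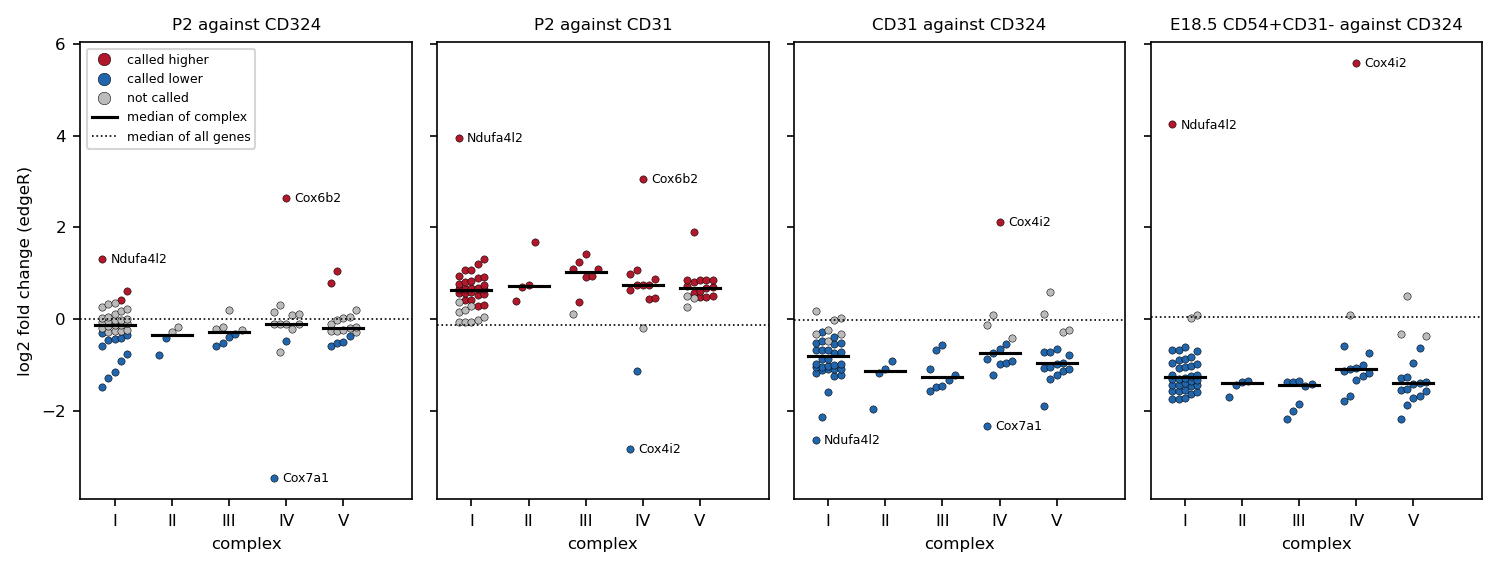
Log2 fold change from edgeR (vertical axis) of the tested members in each of the 4 comparisons, by complex (horizontal axis), with a point per gene coloured by its call, a bar for the median of the complex, and a dotted line for the median of all genes. Members lie near the dotted line in P2 against CD324+ cells, above it in P2 against CD31+ cells, and below it in the remaining comparisons, with Cox6b2, Ndufa4l2, Cox7a1, and Cox4i2 apart from the rest.

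By their calls with TMM across all 4 comparisons, 36 members were not called between P2 and CD324+ cells, higher in P2 than in CD31+ cells, and lower in both CD31+ and E18.5 cells than in CD324+ cells, among them Atp5a1, Cox5a, Ndufs1, Ndufv1, Sdhb, Sdhd, and Uqcrc1. Another 17 had the same pattern but were lower in P2 than in CD324+ cells, among them Atp5b, Ndufa6, Sdha, and Uqcrfs1. These patterns were not counted over all genes, so they are not read as particular to the members. They also depend on the scaling: with the authors' factors 50 of the 78 members were called lower in P2 than in CD324+ cells. With total counts 40 were called lower in CD31+ than in CD324+ cells. Cox7a2l and Ndufb2 were called in no comparison with TMM. Cox7a2l encodes a protein described as a factor that joins complexes III and IV into supercomplexes rather than a subunit of the enzyme. Whether it does so in the embryos used here was not tested. Cox7a2l was at 32.4 ± 2.97 CPM in P2, 34.4 ± 4.69 in CD324+, 36.7 ± 1.91 in CD31+, and 32.1 ± 5.81 in E18.5 cells. The libraries of all groups overlapped. Levels per kb of all annotated exons varied widely within a complex. Over the 12 libraries they averaged 95.1 CPM per kb for Ndufb10 and 0.81 for Ndufb2 in complex I. In complex II they averaged 78.6 for Sdhd and 19.9 for Sdhc, and in complex III 78.5 for Uqcr10 and 40.3 for Uqcrc2. In complex IV they averaged 136 for Cox8a and 2.11 for Cox7a1. In complex V they averaged 316 for Atp5b (its mate in the catalytic head, Atp5a1, was at 277) and 0.35 for Atp5l. Atp5l has 6443 bases of annotated exon but a longest coding transcript of 544 bases, so its level per kb depends on the annotation.

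CD54+CD31- cells of E18.5 were compared with those of E14.5, the CD324+ libraries, in a separate fit of 6 libraries. In E18.5 cells 70 of the 78 members fell and 2 rose, against 33.5% and 35.9% of all 15863 genes tested, and the median log2 fold change was -1.33 beside 0.033 for all genes. Without E18.5 replicate 1, the library with the least Alb, 70 fell and 2 rose with a median of -1.28. Relative to all genes the member median was -1.37 and lay between -1.51 and -0.996 over the 17 settings, and 9 of the 70 calls were lost with total counts and 3 with the authors' factors. All members of complexes II and III fell, with medians of -1.40 and -1.44. So did 33 of 36 in complex I, 11 of 13 in complex IV, and 14 of 17 in complex V. The complex V members not called were Atp5l, Atp5s, and Atp5sl. The libraries did not overlap for 72 members that were lower and 2 that were higher, again not counted over all genes. The hepatoblast, lung, stellate, and heart markers moved with this comparison (10 heart muscle markers summed to between 177 and 383 CPM in E18.5 and at most 6.92 elsewhere), and their part in the result was not tested, so age and cell composition cannot be told apart.

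Among the members that fell most, Uqcr10 was at 13.4, 15.5, and 16.8 CPM in E18.5 and 64.6, 87.7, and 84.8 in CD324+ libraries, 4.56-fold lower without overlap (log2 fold change -2.19, SE 0.14, adjusted p = 3.48e-05). Atp5g1 fell 4.54-fold (adjusted p = 0.000374), Uqcrq 4.01-fold (adjusted p = 0.000416), Atp5g3 3.66-fold (adjusted p = 5.38e-05), Uqcrc1 3.63-fold (adjusted p = 5.02e-05), and Cox7b 3.46-fold (adjusted p = 0.000253). These genes belong to the quinol-oxidizing complex, the c ring, and cytochrome c oxidase. Atp5b fell from 2164 ± 195 to 575 ± 118 CPM (3.32-fold, adjusted p = 0.000284), Atp5a1 from 1268 ± 117 to 460 ± 58.6, and Sdha from 485 ± 26.9 to 165 ± 26.6. The complex I core subunits Ndufs1, Ndufs3, Ndufs7, Ndufs8, Ndufv1, and Ndufv2 fell, by 2.09-fold (Ndufs3) to 2.92-fold (Ndufs8).

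Ndufa4l2 and Cox4i2 went the other way. Both are alternative forms known for induction under low oxygen, Ndufa4l2 of NDUFA4, which is named after complex I but is counted as a subunit of complex IV, and Cox4i2 of subunit 4. Ndufa4l2, on chr10:127514967-127517154 of GRCm38, was at 7.52, 11.2, and 14.2 CPM in E18.5 libraries, 0.82, 0.63, and 0.52 in CD324+, 1.91, 1.58, and 1.48 in P2, and 0.14, 0.11, and 0.063 in CD31+ libraries. Each group was separate from the others, with E18.5 cells highest and CD31+ cells lowest. It rose 18.9-fold in E18.5 over CD324+ cells (log2 fold change 4.24, SE 0.32, adjusted p = 6.03e-05), and the log2 fold change was 4.45 without E18.5 replicate 1. P2 cells also exceeded CD324+ cells in Ndufa4l2, by 2.49-fold (adjusted p = 0.00788), and CD31+ cells, from 236 against 18 counts, by 16.0-fold (counting interval 9.89 to 27.4). Ndufa4 itself fell 2.71-fold in E18.5 cells (adjusted p = 0.000203), from 50.3 ± 6.79 to 16.3 ± 2.76 CPM. Per kb of all annotated exons, Ndufa4l2 held 45.3 ± 4.21% of the pair in E18.5 cells, 4.69 ± 0.63% in P2, 1.67 ± 0.63% in CD324+, and 0.43 ± 0.21% in CD31+ cells. The size of these shares depends on the annotation. Annotated exons cover 1095 bases for Ndufa4l2 and 1381 for Ndufa4, and the longest coding transcripts 934 and 610.

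Cox4i2, on chr2:152754173-152765037, had 539, 442, and 399 counts in E18.5 libraries against 3, 1, and 13 in CD324+ and 7, 5, and 1 in P2 libraries. The ratio of E18.5 to CD324+ cells was 40.8 (counting interval 25.4 to 70.3), and edgeR gave a log2 fold change of 5.58 (SE 0.59, adjusted p = 0.00022), or 5.32 without E18.5 replicate 1. Its CPM was 8.34 in that replicate and 5.72 and 5.53 in the other E18.5 libraries. The lung epithelium markers and the stellate and mesenchymal markers were also highest in the E18.5 libraries. Neither cell composition nor oxygen was tested for Ndufa4l2 or Cox4i2. With Cox4i1 listed at 0, the share of Cox4i2 in subunit 4 could not be given. Cox6b2, in contrast, was called 1.51-fold lower in E18.5 than in CD324+ cells (adjusted p = 0.0199), a call lost in 4 of the 6 fits with a library left out (adjusted p = 0.055 to 0.066), those without CD324+ replicates 2 and 3 and E18.5 replicates 2 and 3, and also with the authors' factors (0.113) and total counts (0.456). Cox7a1 fell 2.38-fold in E18.5 cells (adjusted p = 0.00429).

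**Figure D4:**
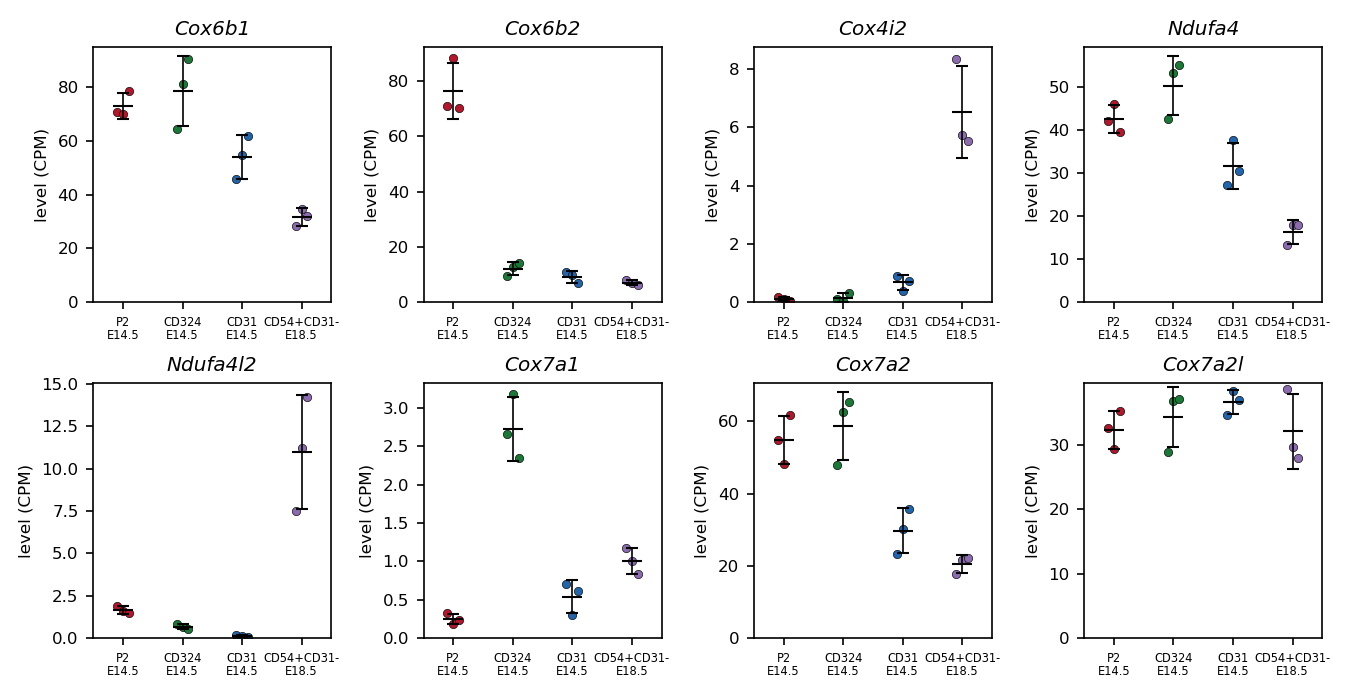
Level in CPM (vertical axes, each starting at 0) of alternative subunit genes in the 4 groups, with a point per library and bars for mean and SD of 3 libraries. Cox6b2 is high in P2 cells alone, Cox4i2 and Ndufa4l2 in E18.5 cells, and Cox7a1 in CD324+ cells, whereas Cox7a2l overlaps between all groups.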

How the data were processed

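RNA of 12 libraries was analysed. The authors removed ribosomal RNA enzymatically, trimmed single-end reads (cutadapt 1.11 in the submitters' processing notes), aligned them to GRCm38 with STAR 2.5.0a, and counted genes with featureCounts 1.4.6-p3. The annotation release, the strand setting, and the treatment of multi-mapping reads are not given in the sources used here. The authors deposited raw counts and, beside them, a rounded score, each count times a factor of its library (their DESeq2 normalization). Tests used the counts, and the authors' factors were read from the score.

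Tests used edgeR 4.0.16 in R 4.3.3 (TMM, filterByExpr, quasi-likelihood test, Benjamini-Hochberg adjustment over all genes, threshold 0.05) with no covariate. One fit held the 9 libraries of E14.5 and another the 6 of the CD54+CD31- gate. SE was the log2 fold change divided by the square root of F. Exon lengths and positions came from GENCODE vM21. The test was tried on simulated counts with known changes. No pair of replicates looked like a duplicate (chi-square per df of 42.0 or more), and at these depths the 3 libraries per group limit precision.

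The members and lists were chosen with earlier results of these data known. Named were the isoform families, core subunits (not all are reported here), members that failed the low count filter, the 6 largest called changes per direction without overlap, and the highest and lowest level per length of each complex. Alternatives were other scalings, DESeq2 1.42.0, other filters, a replicate block, other sets of libraries, a length correction, glmTreat beyond 1.5-fold, and, added after the data were seen, members with shared sequence left out.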

Additional observations from a re-analysis of the deposited data

How the results depend on the processing

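With total counts in place of TMM, all genes had a median log2 fold change of 0.36 (P2 against CD324+), -0.26 (P2 against CD31+), 0.46 (CD31+ against CD324+), and 0.45 (E18.5 against CD324+), and members 0.20 (reversed), 0.54, -0.42, and -0.93. Calls became 23 higher and 7 lower in P2 against CD324+ cells, beside 6765 and 4523 of all 15461 genes. They became 5 higher and 40 lower in CD31+ against CD324+ cells, beside 7651 and 3072. In E18.5 cells 4 were higher, beside 7351 of all 15863 genes. The ratio of summed levels of P2 to CD324+ cells turned from 0.83 to 1.06, Uqcrfs1 to 0.029 in that comparison, and Ndufb3 in CD31+ against CD324+ cells to 0.098. With the authors' factors the member medians were -0.43, 0.29, -0.81, and -1.10. Calls were 3 higher and 50 lower in P2 against CD324+ cells, beside 4008 and 6495 of all 15461 genes. In P2 against CD31+ cells 5 were lower, beside 7475 of all genes, and Ndufb11 reversed to -0.049. With the length trend removed, P2 against CD324+ cells gave 12 higher and 15 lower, beside 6174 and 4885 of all 15437 genes. The member median there was -0.0098, and the medians for CD31+ and E18.5 against CD324+ cells were -0.76 and -1.05. GlmTreat beyond 1.5-fold called 3 higher and 7 lower in P2 against CD324+ cells, 28 higher and 1 lower in P2 against CD31+ cells, and 41 lower in CD31+ against CD324+ cells, where it and a minimum of 10 counts in every library, which removes Cox4i2, each left 0 higher. That minimum gave 1 lower and a median of 0.53 in P2 against CD31+ cells, and 1 higher and -1.19 in E18.5 cells. Fitting only the 6 libraries compared left 1 lower in P2 against CD31+ cells, and all 12 libraries in one fit gave a median of -1.52 for E18.5 cells. With the 26 members sharing sequence left out, 3 were higher in P2 against CD324+ cells, and with those overlapped on the opposite strand left out too, 3 were higher there, 39 higher in P2 against CD31+ cells, and 45 lower in E18.5 cells, of 49 members tested. The cause of these shifts was not tested.

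With each library left out in turn, members higher and lower ranged from 4 to 7 and 18 to 28 in P2 against CD324+ cells (median -0.23 to -0.12), 56 to 62 and 1 to 2 in P2 against CD31+ cells (0.63 to 0.81), 0 to 1 and 61 to 66 in CD31+ against CD324+ cells (-1.08 to -0.85), and 2 to 3 and 67 to 70 in E18.5 cells (-1.44 to -1.28). The most distant medians came without CD31+ replicate 2 in both comparisons with CD31+ cells and without CD324+ replicate 1 in E18.5 cells. Same-numbered libraries deviated together only weakly (mean correlation 0.042, 0.095, 0.085, and 0.054), so the replicate numbers were not taken as pairs. The replicate block gave 6 higher and 24 lower, 62 and 2, 1 and 65, and 2 and 68, and 71 members in the F test against 70. Of 2558 values of single members under the alternatives, 2400 kept direction and call, 155 lost the call, and 3 reversed.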

Other observations

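Assembly factors, which help to build the complexes without staying in them, were counted beside the subunits. Of 44 tested assembly factors, 18 were called higher and 7 lower in P2 than in CD324+ cells (edgeR, median log2 fold change 0.26), beside 33.8% and 36.1% of all genes. Under the authors' factors 6 were higher and 13 lower (median 0.0013), beside 4008 and 6495 of all 15461 genes. Under total counts 30 were higher and 1 lower (median 0.64), beside 6765 and 4523 of all genes. Ndufaf4, a complex I assembly factor, was at 78.5 CPM in P2 and 28.6 in CD324+ cells (log2 fold change 1.44, SE 0.10, adjusted p = 3.1e-07), and Sdhaf2, which attaches flavin to Sdha, rose by 0.86 (adjusted p = 1.7e-05). Lrpprc, which stabilizes mitochondrial transcripts, fell by 0.57 on the log2 scale (adjusted p = 6.3e-05). Against CD31+ cells 35 were higher and 1 lower in P2 cells (median 0.90, beside 34.3% and 39.4% of all genes), CD31+ cells had 2 higher and 31 lower than CD324+ cells (median -0.74, beside 31.7% and 34%), and E18.5 cells 1 higher and 39 lower than CD324+ cells (median -1.15, beside 35.9% and 33.5%). These medians kept their sign under the authors' factors (0.53, -0.64, and -0.91) and under total counts (0.77, -0.24, and -0.74).

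Of 12 regulators of mitochondrial genes, 7 rose and 1 fell in P2 against CD324+ cells, beside 33.8% and 36.1% of all genes, among them Nrf1 (log2 fold change 0.84, adjusted p = 6.5e-06) and Pprc1 (1.08, adjusted p = 8.1e-07). The coactivators Ppargc1a and Ppargc1b were opposed: Ppargc1a was at 56.7 CPM in CD324+, 54.2 in E18.5, 1.96 in CD31+, and 0.71 in P2 cells, and Ppargc1b at 5.97, 12.9, 58.4, and 36.4. Tfam, the packaging factor of mitochondrial DNA, was at 105 CPM in P2, 104 in CD324+, 37.4 in CD31+, and 25.4 in E18.5 cells. Regulators numbered 8 higher and 3 lower in P2 against CD31+ cells, beside 34.3% and 39.4% of all genes. In CD31+ against CD324+ cells 4 were higher and 5 lower, beside 31.7% and 34% of all genes. In E18.5 against CD324+ cells 2 were higher and 7 lower, beside 35.9% and 33.5%. The regulator median in the last comparisons, -0.18 and -0.28, turned to 0.32 and 0.13 under total counts. Of 13 citric acid cycle genes, 4 rose and 4 fell in P2 against CD324+ cells, shares near those of all genes. Under the authors' factors 2 rose and 8 fell, beside 4008 and 6495 of all 15461 genes. Under total counts 7 rose and 1 fell, beside 6765 and 4523. Cs, citrate synthase, was at 394 CPM in P2 and 162 in CD324+ cells, and Fh1, fumarase, at 89.7 and 166. All 13 rose in P2 over CD31+ cells (10 under the authors' factors, 12 under total counts), beside 34.3% of all genes. All 13 fell in E18.5 against CD324+ cells (12 and 10), beside 33.5% of all genes. In CD31+ against CD324+ cells 12 fell (12 and 8), beside 34% of all genes. Cyc1, Ndufab1, and Cycs, which belong to the chain but not to the name rule, were at 104, 58.1, and 4.69 CPM in P2 and 99.5, 55.4, and 5.04 in CD324+ cells, and all 3 fell in E18.5 cells.

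The 13 protein genes of mitochondrial DNA summed to between 3113 and 4120 CPM in P2, 3641 and 5392 in CD31+, and 3839 and 7432 in E18.5 libraries, and to 20052, 5021, and 5822 in CD324+ libraries. Of 8 tested, 7 were lower in P2 than in CD324+ cells, beside 36.1% of all genes. With CD324+ replicate 1 left out, 5 were lower, beside 5323 of all 15909 genes tested. The median log2 fold changes were -1.57 with that library and -0.56 without it. In CD31+ against CD324+ cells the medians were -1.09 and -0.36. With that library included, 4 of the mitochondrial genes were called lower, beside 34% of all genes. Those called lower then numbered 3 under the authors' factors and 0 with edgeR under total counts (also 0 at an unadjusted p under 0.05). With CD324+ replicate 1 left out, 0 were called lower with TMM, beside 5191 of all 15909 genes tested. In P2 against CD31+ cells and in E18.5 against CD324+ cells, 0 of the 8 were called higher and 0 lower.

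Of the other cell type lists, 8 macrophage markers summed to 6.25 to 8.74 CPM in P2, 123.2 to 210 in CD324+, 46.8 to 88.3 in CD31+, and 43.7 to 141 in E18.5 libraries, and 8 skeletal muscle markers to at most 3.95 in any library.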
